A study of Drosophila melanogaster with 8 samples.

Results

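Broad γH2Av domains are the widest enriched regions found by ChIP-seq of γH2Av, the phosphorylated form of the histone variant H2Av, in Drosophila S2 cells. A peak was taken as broad when it spanned at least 5 kb in its own list. All peaks of the 4 lists, broad or not, were linked when they overlapped by at least 1 bp. A linked region with at least 1 broad peak in any library was taken as a broad domain. This gave 1730 broad peaks of 14456 peaks in all. They fell into 725 domains, among 4731 linked regions of the genome. The members were thus chosen by peak width alone, and widths, counts of broad peaks and covered lengths below are descriptions. Score rank and position were not used to choose them. The number of separate peaks per domain is tied to the choice, since a stretch broken into peaks under 5 kb does not qualify.

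H2Av is the only H2A variant of Drosophila and combines the roles of mammalian H2A.X and H2A.Z. It is phosphorylated near the C terminus by the DNA damage kinases ATM and ATR, and the mark spreads into chromatin on both sides of a double-strand break. Phosphorylation of this residue also occurs at promoters, where it has been linked to transcription. dH1 is the linker histone of Drosophila. It binds the DNA entering and leaving the nucleosome, compacts the nucleosome fibre and takes part in silencing of transposable elements and satellite repeats in heterochromatin, which lies mainly around the centromeres.

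S2 cells are a cultured Drosophila line of embryonic origin. For the dH1 RNAi group, double-stranded RNA against dH1 (100 μg) was given on days 1, 4 and 7 of an incubation of 8 days. The WT group consisted of untreated S2 cells. Each group had 2 biological replicates, and each of the 4 ChIP libraries had its own input library, so that 8 samples were sequenced. Since WT cells received no control RNA, an effect of RNA treatment and an effect of dH1 loss cannot be told apart. Peak lists hold no measure of dH1 itself, and the knockdown was not checked here. The lists held 3733 and 3037 peaks in dH1 RNAi replicates 1 and 2, and 3761 and 3925 peaks in WT replicates 1 and 2. WT replicate 1 stood apart from the other libraries: 90 domains were called in that library alone. Results that rest on it are given with and without it.

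Broad peaks were slightly less frequent in dH1 RNAi cells than in WT cells. There were 427 and 332 broad peaks in the dH1 RNAi libraries, against 490 and 481 in the WT libraries. As a share of each list this was 11.4% (95% Wilson interval 10.5 to 12.5%) and 10.9% (9.87 to 12.1%) in dH1 RNAi, against 13.03% (11.99 to 14.1%) and 12.3% (11.3 to 13.3%) in WT. Both dH1 RNAi shares lay below both WT shares, with means of 11.2 ± 0.358% and 12.6 ± 0.547% (SD, n = 2 each). Intervals cover counting error only, since read depth is unknown from peak lists.

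**Figure D1:**
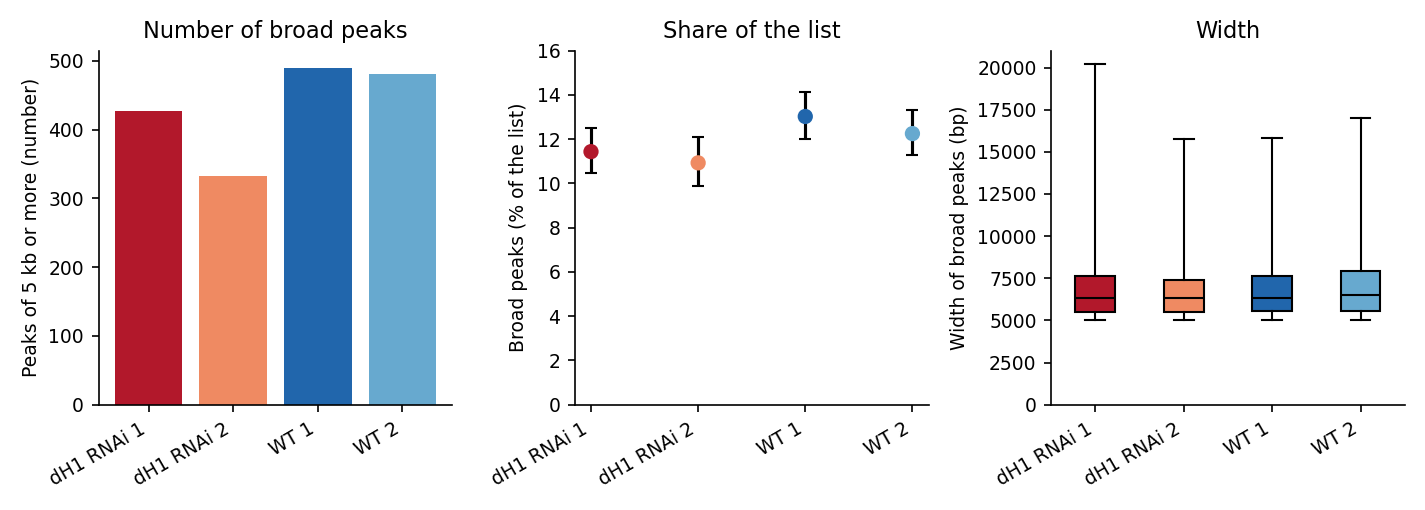
Number of peaks of at least 5 kb (left, bars), their share of each list in percent with 95% Wilson intervals (middle, points) and their width in bp (right, boxes for the median and quartiles, whiskers for the range), by library. The dH1 RNAi libraries held 427 and 332 broad peaks and the WT libraries 490 and 481, and the dH1 RNAi shares of 11.4 and 10.9% lay below the WT shares of 13.03 and 12.3%.

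Broad peaks covered 2.98 and 2.26 Mb in the dH1 RNAi libraries, against 3.39 and 3.43 Mb in the WT libraries. This was 27.0 and 25.2% of the covered length of the dH1 RNAi lists, against 30.01 and 28.3% of that of the WT lists. A broad peak had about the same width in all libraries, with medians of 6344 and 6307 bp in dH1 RNAi and 6319 and 6499 bp in WT. Peaks of at least 10 kb numbered 39 and 24 in dH1 RNAi and 42 and 47 in WT. Of peaks of at least 15 kb there were 5 and 1 in dH1 RNAi and 4 and 5 in WT.

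The limit of 5 kb did not coincide with a gap in the widths. The narrowest broad peak measured 5001 and 5004 bp in the dH1 RNAi libraries and 5001 and 5004 bp in the WT libraries. The widest peak just outside the limit measured 4998 and 4999 bp in dH1 RNAi and 4994 and 4989 bp in WT.

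Broad peaks ranked high within their lists in both groups. The score of a peak is −10 times the log10 of the peak caller's p-value, and it is given here as a percentile of its own list, where a high percentile is a strong peak. The median broad peak stood at percentile 88.6 and 87.5 in the dH1 RNAi libraries, against 83.9 and 85.9 in the WT libraries. Both dH1 RNAi medians lay above both WT medians, and the means were 88.0 ± 0.748 and 84.9 ± 1.404 (SD, n = 2 each). The difference of 3.14 gave p = 0.33 in an exact permutation test, two-sided, which is the smallest p that 2 libraries against 2 allow.

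Peaks under 5 kb had median percentiles of 45.6 and 45.9 in dH1 RNAi and 45.8 and 45.9 in WT. Broad peaks thus ranked higher than other peaks in 4 of 4 libraries, by 40.6 percentiles on average (exact sign-flip test, p = 0.125, the smallest that 4 libraries allow). Over all peaks of a list, width and score went together, with Spearman correlations of 0.741 and 0.705 in dH1 RNAi and 0.644 and 0.694 in WT. The points of a correlation are peaks of 1 library and are not independent replicates. Within the broad peaks the correlation was near 0, at −0.0903 and −0.0749 in dH1 RNAi and −0.0292 and −0.163 in WT.

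The high rank was shared by the moderately broad peaks and by peaks just under the limit. Peaks of 4 to 5 kb had median percentiles of 84.6 and 85.6 in dH1 RNAi and 81.8 and 84.6 in WT. From 5 to 7.5 kb, the median percentile was 89.7 and 88.7 in dH1 RNAi and 84.6 and 88.8 in WT. From 7.5 to 10 kb, it was 90.9 and 84.3 in dH1 RNAi and 86.1 and 80.7 in WT. At 10 kb and above, it was 61.1 and 78.0 in dH1 RNAi and 63.8 and 49.4 in WT. The widest class thus ranked below the class of 5 to 7.5 kb in each of the 4 libraries, on 39 and 24 peaks in dH1 RNAi and 42 and 47 in WT.

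**Figure D2:**
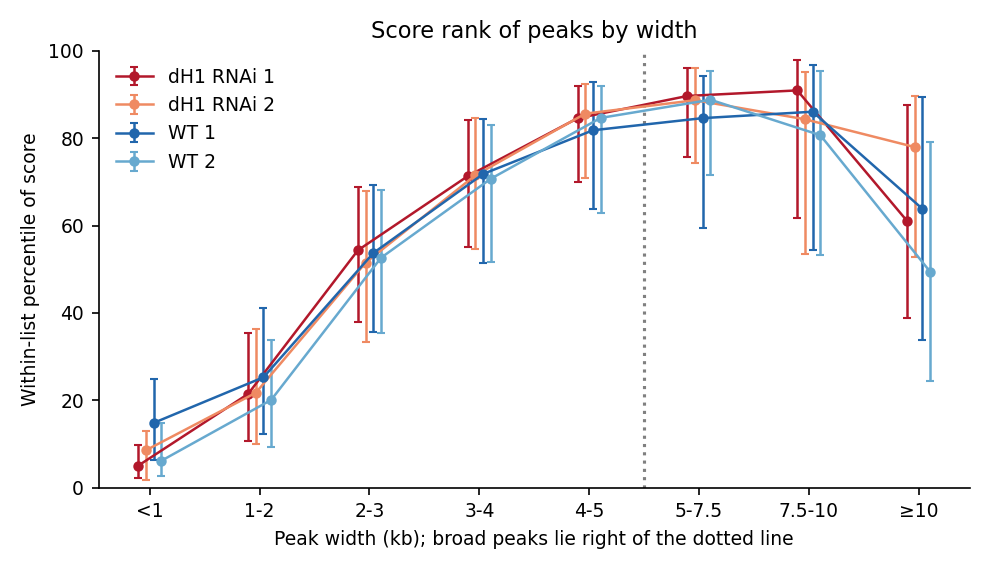
Within-list percentile of score by peak width in kb, with 1 line per library, where points are medians, bars span the quartiles and the dotted line marks 5 kb. Medians climb with width up to about 5 to 10 kb in all libraries and are lower at 10 kb and above, at 61.1 and 78.0 in dH1 RNAi and 63.8 and 49.4 in WT.

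The widest peak of a library was often a weak one. In dH1 RNAi replicate 1 it was chr2L:22421819-22442037 in the dm3 build, which measured 20219 bp and ranked 3390 of 3733. In dH1 RNAi replicate 2 it was chr2L:22167683-22183461, with 15779 bp and rank 674 of 3037. In WT replicate 1 it was chr2L:22103359-22119165, with 15807 bp and rank 3669 of 3761. In WT replicate 2 it was chr2R:3703650-3720634, with 16985 bp and rank 3780 of 3925. The 3 peaks on arm 2L lay within 2 Mb of the centromere-proximal end of that arm.

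The strongest peaks of all were mostly broad. Each list holds tied peaks at a score of exactly 3100, near its maximum, and 9 of 9 and 2 of 2 of them were broad in the dH1 RNAi libraries, against 13 of 14 and 25 of 29 in the WT libraries. Above the 90th percentile stood 47.3 and 44.3% of the broad peaks in dH1 RNAi, against 34.9 and 43.5% in WT. Below the 50th percentile stood 13.3 and 13.3% in dH1 RNAi, against 20.2 and 18.9% in WT.

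Broad domains were spread over the genome, on 11 of the 14 sequences that the lists hold. Arm 2R had 181 domains, 2L had 156, 3R had 141, 3L had 126 and the X had 81. Chromosome 4, which is small and largely heterochromatic, had 6. A further 27 lay on the Het sequences, which are assembled heterochromatin that belongs to a known arm: 11 on 2RHet, 9 on 3RHet, 5 on 3LHet and 2 on 2LHet. The unplaced sequence U had 7.

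Peaks on the Het sequences were broad more often than peaks on the euchromatic arms. Of the Het peaks, 28.6 and 21.4% were broad in dH1 RNAi, against 33.3 and 19.6% in WT, and on the autosomal arms 11.8 and 11.5% were broad in dH1 RNAi, against 14.6 and 13.4% in WT. The Het shares averaged 25 ± 5.05% in dH1 RNAi and 26.4 ± 9.74% in WT (SD, n = 2 each), and the libraries of the groups overlapped. They rest on 16 of 56 and 12 of 56 peaks in dH1 RNAi and on 22 of 66 and 9 of 46 peaks in WT. Chromosome 4 did not share this, with 9.09 and 3.57% broad in dH1 RNAi and 11.9 and 8.33% in WT. Nor did U, with 8.33 and 0% in dH1 RNAi and 11.3 and 0% in WT. Both lay below the autosomal arms in every library, on few peaks. On the X the share was lower than on the pooled autosomal arms in every library, with 9.90 and 8.39% in dH1 RNAi and 10.8 and 7.603% in WT. This was not particular to the X, since arm 3R alone had 9.03 and 8.58% in dH1 RNAi and 12.42 and 10.5% in WT. On Uextra, which collects unplaced short sequences, none of 92 and 65 peaks in dH1 RNAi and none of 329 and 64 peaks in WT was broad. These zeros allow shares of up to 3.26 and 4.62% in dH1 RNAi and 0.912 and 4.69% in WT.

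**Figure D3:**
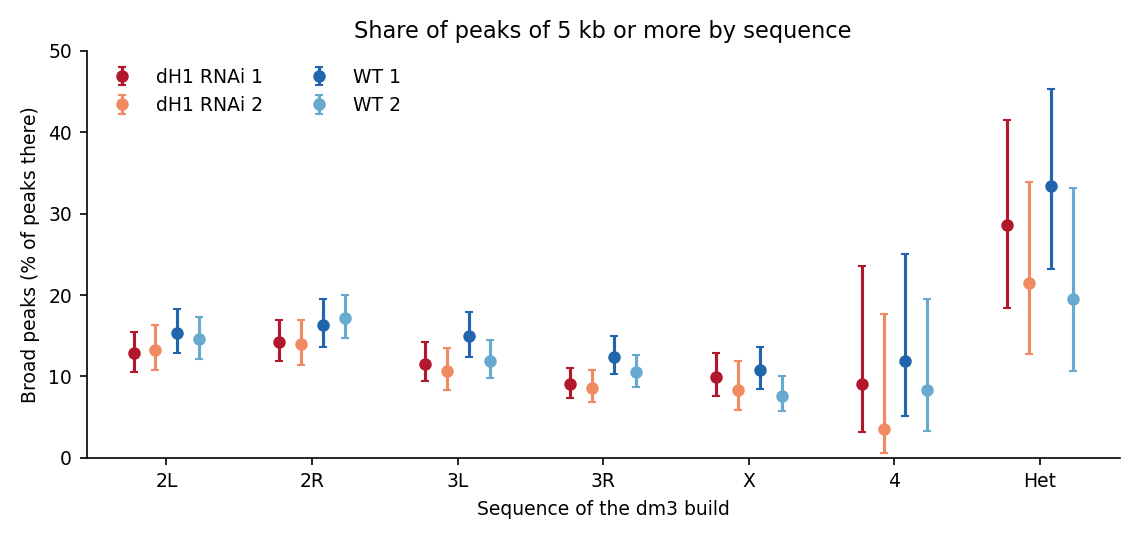
Share of peaks of at least 5 kb, in percent of the peaks on each sequence, for the 5 large arms, chromosome 4 and the pooled Het sequences, with 1 point per library and 95% Wilson intervals. The Het sequences stand at 28.6 and 21.4% in dH1 RNAi and 33.3 and 19.6% in WT, against 9.90 and 8.39% in dH1 RNAi and 10.8 and 7.603% in WT on the X.

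Broad peaks also lay more often than other peaks within 2 Mb of the centromere-proximal end of their arm. This applied to 14.5 and 17.6% of the broad peaks in dH1 RNAi and to 14.3 and 11.1% in WT. Among peaks under 5 kb the shares were 9.61 and 10.1% in dH1 RNAi and 9.73 and 7.53% in WT. The difference was 5.13 percentage points on average and had the same sign in 4 of 4 libraries (exact sign-flip test, p = 0.125, the smallest possible). Broad peaks there were also wider, with medians of 7501 and 6656 bp in dH1 RNAi and 7325 and 7336 bp in WT, against 6344 and 6306 bp in dH1 RNAi and 6259 and 6450 bp in WT on the rest of the arms.

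Most broad domains were called in every library. Of the 725 domains, 454 (62.6%) held a peak in all 4 libraries, against 46.6% of the 4006 regions without a broad peak. A region called in more lists has more chances to hold a broad peak, so that these shares are a description. Peak by peak, broad peaks were recovered more often than other peaks in some pairs of libraries and less often in others. For WT replicate 1 in WT replicate 2, the shares were 75.3% of broad and 81.6% of other peaks. In the reverse direction, they were 85.9% of broad and 75.6% of other peaks. In 202 domains (27.9%) the peak was broad in all 4 libraries, and in 274 it was broad in only 1. A domain could thus be present in every library and still reach 5 kb in a single one, and 102 of the 454 shared domains were of this kind.

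Domains seen in 1 library came mainly from WT replicate 1. A single library called 132 domains, of which 9 and 6 came from the dH1 RNAi replicates and 90 and 27 from the WT replicates. Without WT replicate 1, 460 of 600 domains (76.7%) were called in every library. The 90 domains of WT replicate 1 were not shifted copies of peaks in other lists. Only 3 of them had a peak of another library within 1000 bp, and the median distance was 34638 bp. They included 11 domains on Het sequences, 5 on U and 16 on the X. Their median percentile was 60.8, and 7 stood above the 90th. The strongest, picked after its value was seen, was chr3R:8745697-8751460, which ranked 52 of 3761 in WT replicate 1 and was called in no other library.

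Recovery of broad peaks was nearly the same within and between groups. On average 86.0% of the broad peaks of a library overlapped a peak of the other library of its group, and 84.8% overlapped a peak of a library of the other group. The difference of 1.196 percentage points was the largest of the 3 pairings of the 4 libraries (exact permutation, p = 0.33, the smallest possible). It turned to −3.55 without dH1 RNAi replicate 1 and to −4.96 without dH1 RNAi replicate 2, and it was 3.14 without WT replicate 1 and 10.2 without WT replicate 2.

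Recovery did not mean that the peak stayed broad. Of the broad WT peaks, between 49.2 and 68.2% met a broad peak in a dH1 RNAi library, and between WT replicates 66.1 and 67.2% did so. Broken peaks, in which the position of a broad WT peak held at least 2 peaks under 5 kb, made up 8.37 to 13.7% in dH1 RNAi libraries and 4.29 and 7.48% in the other WT library. In the opposite direction, broad dH1 RNAi peaks met a broad WT peak in 70.7 to 77.1% of cases and a broken one in 3.61 to 5.42%. Between the dH1 RNAi replicates, which differ in list length, 66.3 and 84.3% of broad peaks met a broad one and 9.84 and 4.52% a broken one. The broken share of 9.84%, for dH1 RNAi replicate 1 in replicate 2, lay within the range of WT peaks in dH1 RNAi libraries.

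**Figure D4:**
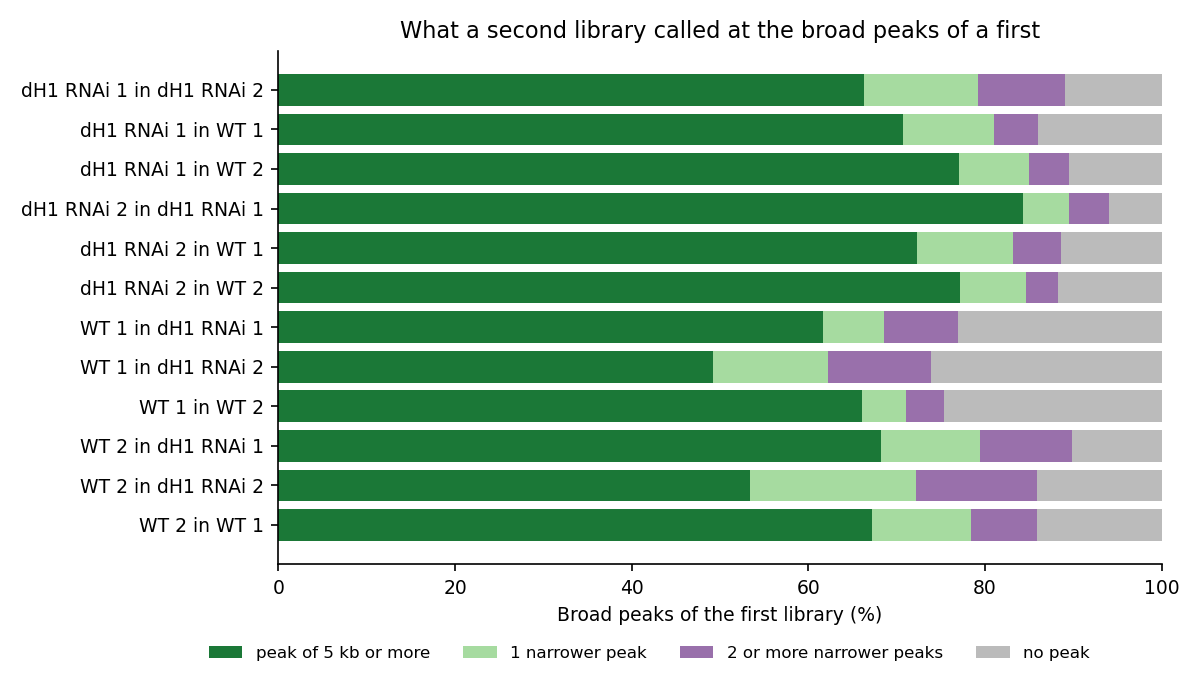
What lay at the position of each broad peak in another library, in percent of the broad peaks of the first library, for the 12 ordered pairs of libraries. Broad WT peaks met a broad dH1 RNAi peak in 49.2 to 68.2% of cases and at least 2 narrower ones in 8.37 to 13.7%, while broad dH1 RNAi peaks met a broad WT peak in 70.7 to 77.1% and at least 2 narrower ones in 3.61 to 5.42%.

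The number of separate peaks per domain depended on which domains were counted. In the 454 domains called in all libraries, the mean was 1.27 and 1.32 peaks in dH1 RNAi, against 1.205 and 1.16 in WT, and both dH1 RNAi libraries lay above both WT libraries. Group means were 1.30 ± 0.0374 and 1.18 ± 0.0343 (SD, n = 2 each). These values follow from the choice in part, since 104 of the 454 domains had no broad dH1 RNAi peak and 39 had no broad WT peak. In the 202 domains broad in all 4 libraries, the mean was 1.14 and 1.22 peaks in dH1 RNAi and 1.15 and 1.14 in WT, and the groups overlapped. Among the 454 domains, more than 1 peak was found in 116 and 126 domains in dH1 RNAi, against 83 and 70 domains in WT. A single peak in every library was found in 253 domains (55.7%).

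By domain, both dH1 RNAi libraries held more peaks than both WT libraries in 24 of 454 domains (5.29%), against 1.9% of all regions called in 4 libraries. Fewer peaks were found in 5 domains (1.10%), against 0.388% of all regions. Both shares were above those of all regions. Of the 24 domains, 17 had no broad dH1 RNAi peak, and of the 5 domains, 4 had no broad WT peak. Among domains broad in all 4 libraries, 3 of 202 (1.49%) had more peaks in dH1 RNAi, which is below the share of all regions. Fewer peaks were found in 1 of these 202 (0.495%), against 0.388% of all regions. Domain chr3R:5221809-5231968 held 3 and 3 peaks in dH1 RNAi against 2 and 1 in WT, and covered 9650 and 9512 bp in dH1 RNAi against 9692 and 10092 bp in WT. There the peak was divided with little change in covered length. Domain chr2L:864446-872270 likewise held 3 and 3 peaks in dH1 RNAi against 2 and 1 in WT. In chr3R:17688886-17698451, 2 and 3 peaks in dH1 RNAi stood against 1 and 1 in WT, while WT replicate 1 covered only 2879 bp of it, against 9332 bp in WT replicate 2. The opposite was seen at chr2R:4968845-4977562, with 1 and 1 peaks in dH1 RNAi against 2 and 2 in WT.

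Most shared domains covered slightly less sequence in dH1 RNAi cells. The covered length of a domain is the summed width of the peaks that a library has in it, and its median was 6057 and 5803 bp in dH1 RNAi, against 6071.5 and 6122 bp in WT. Group means were 5930 ± 180 and 6096.75 ± 35.7 bp (SD, n = 2 each). By domain, the dH1 RNAi mean was higher in 147 domains and the WT mean in 307, with a median difference of −188 bp or −2.60%. Regions without a broad peak differed by −132 bp, which for these shorter regions was −5.09%. Domains broad in all 4 libraries differed by −69 bp. The median difference of dH1 RNAi replicate 1 from the WT libraries was −18.5 and −85 bp, and that of dH1 RNAi replicate 2 was −191 and −309 bp. Between replicates it was 176 bp in dH1 RNAi and −62.5 bp in WT, for replicate 1 minus replicate 2. Only dH1 RNAi replicate 2 thus differed from both WT libraries by more than the 176 bp between the dH1 RNAi replicates. For dH1 RNAi replicate 1, the −85 bp from WT replicate 2 was larger in size than the −62.5 bp between the WT replicates.

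The domains did not all move the same way. Both dH1 RNAi libraries covered more than both WT libraries in 64 of 454 domains (14.1%), against 7.72% of all regions called in 4 libraries. They covered less in 160 domains (35.2%), against 42.8% of all regions. Wider domains were thus more common, and narrower domains less common, than among all regions. In regions without a broad peak the shares were 6.16% wider and 44.7% narrower. Of the 64 wider domains, 21 had no broad WT peak, and of the 160 narrower ones, 67 had no broad dH1 RNAi peak. With 1 library left out, the limit of non-overlap is easier to pass, and the counts were 87 to 136 wider and 198 to 264 narrower domains.

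Domains that were wider in dH1 RNAi lay to a large extent near the centromeres. A domain was placed there when it was within 2 Mb of the centromere-proximal end of a large arm or on a Het sequence, a comparison added after the data had been seen. Of 62 such domains, 30 (48.4%, 95% Wilson interval 36.4 to 60.6%) were wider in both dH1 RNAi libraries and 11 (17.7%) were narrower. Of the 392 other domains, 34 (8.67%, interval 6.27 to 11.9%) were wider and 149 (38.0%) were narrower. The direction was thus turned round between the 2 classes of position. Neighbouring domains are not independent, so that these intervals are too narrow. Without WT replicate 1, the share of wider domains was still higher near the centromeres than elsewhere, by 35.9 percentage points, against 39.7 with all libraries.

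The same contrast was present among all regions, but was smaller. Near the centromeres and on Het sequences, 24.9% of all regions called in 4 libraries were wider in dH1 RNAi and 28.2% were narrower, and elsewhere 5.72% were wider and 44.5% narrower. Regions there with no broad peak were wider in 16.8% of cases, on 179 regions. Of the domains broad in all 4 libraries, where no library decided the choice alone, 15 of 34 (44.1%) were wider near the centromeres and 15 of 168 (8.93%) elsewhere.

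Per library, the covered length of each domain was set against its mean over the 4 libraries. Near the centromeres the median was 103 and 101% in dH1 RNAi, against 97.8 and 97.8% in WT. In the other domains it was 100 and 96.5% in dH1 RNAi, against 101 and 103% in WT. The near value minus the other value was 3.11 and 4.82 percentage points in dH1 RNAi, and −3.26 and −4.78 in WT. These differences averaged 3.97 ± 1.204 in dH1 RNAi and −4.02 ± 1.08 in WT (SD, n = 2 each), so that the groups were separated by 7.98 points. An exact permutation test gave p = 0.33, two-sided, the smallest possible. Covered length is tied to the choice of domains, and the classes of position were set after the data had been seen. The separation is therefore a description, and no conclusion is drawn from the test. The median score percentile of the domains near the centromeres was 95.3 and 91.7 in dH1 RNAi and 95.3 and 81.5 in WT. In the other domains it was 87.5 and 84.6 in dH1 RNAi and 84.5 and 90.01 in WT. Domains near the centromeres thus ranked above the others in 3 of the 4 libraries and below them in WT replicate 2.

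**Figure D5:**
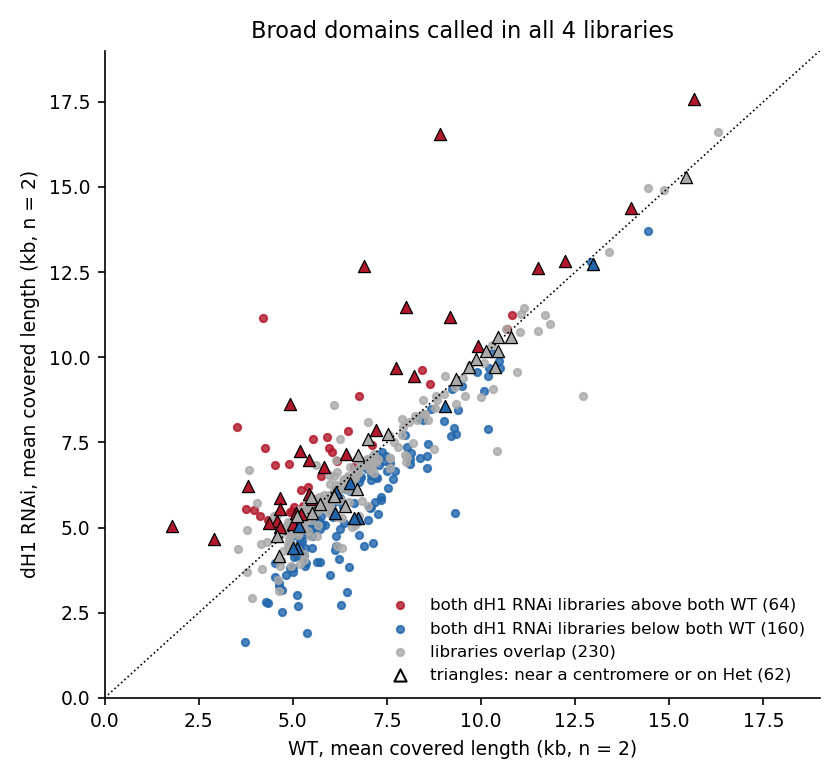
Mean covered length in kb of each of the 454 domains called in all 4 libraries, with dH1 RNAi on the vertical axis and WT on the horizontal axis (n = 2 libraries each); the dotted line marks equality and triangles are the 62 domains near a centromere or on a Het sequence. The 64 domains wider in both dH1 RNAi libraries include 30 triangles, and the 160 narrower ones include 11.

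The contrast was also described in libraries whose width did not choose the domains. The classes of position had been set with all 4 libraries seen, so that this is not an independent check. Domains were chosen by a broad peak in the replicates of one number and measured in those of the other, with 1 library per group and therefore no test. They were still limited to domains called in all 4 libraries. Chosen in replicates 1 and measured in replicates 2, 58 domains near the centromeres covered a median of 6762.5 bp in dH1 RNAi and 6363.5 bp in WT, and the dH1 RNAi value was the larger in 62.1% of them. The 329 other domains covered 5904 bp in dH1 RNAi and 6387 bp in WT, and dH1 RNAi was larger in 21.9%. Chosen in replicates 2 and measured in replicates 1, the 56 domains near the centromeres covered 7384 bp in dH1 RNAi and 6429.5 bp in WT, with dH1 RNAi larger in 67.9%. The 353 other domains covered 6147 bp in dH1 RNAi and 6137 bp in WT, with dH1 RNAi larger in 44.5%. Without that limit, and with 0 bp where a library had no peak, the contrast was weaker. Measured in replicates 2, dH1 RNAi was larger in 48 and WT in 32 of 106 domains near the centromeres, and dH1 RNAi was larger in 105 and WT in 310 of 498 others. Measured in replicates 1, dH1 RNAi was larger in 46 and WT in 32 of 82 domains near the centromeres, and dH1 RNAi was larger in 215 and WT in 219 of 467 others. This measure was added after the data had been seen. For domains called in all libraries and without regard to position, the median difference was −261 bp over 387 domains measured in replicates 2 and −17 bp over 409 domains measured in replicates 1.

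The arms did not contribute equally. Near the centromere of 2L, 12 of 21 domains were wider in dH1 RNAi and 3 were narrower, with a median difference of 427 bp, while on the rest of 2L 6 of 73 were wider and 26 narrower. On 3L, 3 of 4 were wider near the centromere, against 8 of 82 elsewhere. On 2R, 3 of 14 were wider and 2 narrower near the centromere. Arm 3R went the other way, with 1 of 7 wider and 4 narrower near the centromere. On the Het sequences together, 9 of 13 domains were wider and 1 was narrower. The X had 3 domains near its centromere, of which 2 were wider. On chromosome 4, which was not counted as near a centromere, none of 5 domains was wider and 4 were narrower.

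Individual domains show how the change looked. On 3LHet, all 3 shared domains were wider in dH1 RNAi, and they are named here after their values were seen. Domain chr3LHet:598553-610336 was a single peak of 11784 and 10574 bp in dH1 RNAi, against 8720 and 9631 bp in WT. Its rank was 26 and 5 in dH1 RNAi, against 5 and 235 in WT, so that it was among the strongest peaks of every list. The other domains of this sequence were smaller. Domain chr3LHet:2396070-2401343 covered 5260 and 5008 bp in dH1 RNAi, against 4649 and 4102 bp in WT. Domain chr3LHet:2232857-2238362 covered 5506 and 5316 bp in dH1 RNAi, against 5205 and 5213 bp in WT, a gap of about 100 bp between the groups.

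Among domains called in all 4 libraries and with no overlap between groups, the largest gains in covered length came from both kinds of position. Domain chr2R:1179810-1196651, near the centromere, covered 16578 and 16553 bp in dH1 RNAi, against 14496 and 3335 bp in WT, so that its mean difference of 7650 bp rests largely on WT replicate 2. Domain chr3R:20009876-20021260, far from the centromere, covered 11083 and 11223 bp in dH1 RNAi, against 4310 and 4087 bp in WT. It was the largest of these gains outside the centromeric parts, with 2 peaks in each dH1 RNAi library and 1 in each WT library. Domain chr3R:3945881-3954275 covered 7673 and 8250 bp in dH1 RNAi, against 3572 and 3434 bp in WT.

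A domain near the centromere of 2L was both wider and less divided in dH1 RNAi. Domain chr2L:21846045-21859649 covered 11752 and 13605 bp in dH1 RNAi as 1 peak in each library, against 6221 and 7536 bp in WT as 2 peaks in each. It ranked at percentile 65.5 and 45.4 in dH1 RNAi and at 80.1 and 19.9 in WT, so that its rank differed widely between the WT replicates. The domains next to it on the distal side showed the opposite. Domain chr2L:21790339-21800810 had no peak in dH1 RNAi, against 9170 and 10472 bp in WT, and chr2L:21822179-21832397 had none in dH1 RNAi, against 10219 and 9223 bp in WT. In WT replicate 1 the first of them ranked 24 of 3761. Between them, dH1 RNAi replicate 1 held a weak peak of 12290 bp at chr2L:21801352-21813641, with a score of 138.13. WT replicates 1 and 2 covered 4862 and 9736 bp of that domain, and dH1 RNAi replicate 2 had no peak in it. The stretch from chr2L:21790339 to 21859649 was singled out after its values were seen. Outside the domain at 21801352, it held gains and losses of broad domains side by side, in both replicates of each group.

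Losses were ranked in the same way, among domains called in all 4 libraries with no overlap between groups. The largest of them lay on the chromosome arms, outside the centromeric parts. The losses to no peak in dH1 RNAi given above, near the centromere of 2L, were larger. Domain chr3R:7502486-7512255 covered 7049 and 3833 bp in dH1 RNAi, against 8991 and 9635 bp in WT. Domain chr3L:11615566-11621971 covered 3516 and 1927 bp in dH1 RNAi, against 6137 and 6405 bp in WT. Domain chr3L:11781652-11787737 covered 1980 and 1851 bp in dH1 RNAi, against 5379 and 5360 bp in WT. The replicates differed little in this last domain, and the dH1 RNAi peaks had the width of an ordinary narrow peak. Domain chrX:1365953-1372658 covered 3431 and 2786 bp in dH1 RNAi, against 6288 and 6572 bp in WT.

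Most of the longest domains called in all 4 libraries changed little. The longest by mean covered length was chr2L:22124615-22142356, near the centromere, with 17715 and 17450 bp in dH1 RNAi against 15574 and 15763 bp in WT. Its rank went the other way, at 1053 and 592 in dH1 RNAi against 51 and 102 in WT. The next, chr2L:16324295-16342152, covered 16781 and 16469 bp in dH1 RNAi and 15788 and 16817 bp in WT. It is composed of several peaks, with 2 and 4 in dH1 RNAi and 4 and 3 in WT. Domain chr2L:22167683-22183461 was a single peak in all libraries, with 14799 and 15779 bp in dH1 RNAi and 15594 and 15275 bp in WT. Of the 8 longest domains, chr2R:5845177-5860725, chr3R:4125363-4139976 and chr3R:4545396-4559306 also had overlapping values or a difference under 1000 bp. Domain chr3R:1386544-1401449, near the centromere, covered 14378 and 14408 bp in dH1 RNAi, against 13726 and 14252 bp in WT.

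The edges of single-peak domains were placed with similar precision in all lists. In the 253 domains with 1 peak in each library, an edge moved by a median of 101.5 bp between dH1 RNAi replicates and 93 bp between WT replicates, and by 115.5 to 141 bp between the groups. Both edges lay further inward in dH1 RNAi in 101 of these domains, both lay further outward in 40, and in 112 the edges moved in opposite ways or were tied.

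Few broad domains belonged to 1 group alone. A peak in both dH1 RNAi libraries and in no WT library was found in 11 domains, of which 9 were broad in both. A peak in both WT libraries and in no dH1 RNAi library was found in 12 domains, of which 9 were broad in both. These are 1.52 and 1.66% of the 725 domains. The same shares over all linked regions are not given here, so that the low number is not a trait of broad domains. Of the domains called in dH1 RNAi alone 1 lay within 2 Mb of a centromere-proximal end, against 5 of those called in WT alone, and none of either class lay on a Het sequence.

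The widest domain called in dH1 RNAi alone was chr2R:3445626-3457685, with 12040 and 11865 bp in the dH1 RNAi libraries. Domain chr2R:3966433-3975409 measured 6622 and 8963 bp and ranked 61 of 3733 and 318 of 3037. Domain chr2L:446684-454428 measured 7729 and 7667 bp and ranked low in both lists, at percentile 38.9 and 28.2. Domain chr3L:16579060-16586387, with 7234 and 7074 bp, directly followed the shared domain chr3L:16563281-16578423. The shared domain covered 15014 and 14944 bp in dH1 RNAi and 15075 and 13818 bp in WT. In dH1 RNAi replicate 2 the chain continued with peaks of 8272 and 6234 bp up to position 16600988, and WT replicate 2 held a weak peak of 14884 bp just beyond it, at chr3L:16601103-16615986. From 16578423 to 16600988, a stretch also singled out after its values were seen, neither WT list held a peak.

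The widest domain called in WT alone was chr2L:12037096-12051135, with 14040 and 13520 bp in the WT libraries. It ranked at percentile 39.0 and 9.12, so that it was a weak peak in both WT lists. Domain chr3R:18403500-18415958 measured 12135 and 12459 bp and stood at percentile 13.1 and 81.9. The remaining named WT domains are the adjacent ones near the centromere of 2L given above, which ranked higher.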

How the data were processed

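γH2Av ChIP-seq was done in S2 cells under dH1 RNAi and in WT cells, with 2 biological replicates and an input for each ChIP library. The authors mapped reads to the dm3 build using Bowtie 0.12.5. All alignment sites of a read were kept, up to 10000, so peaks on repeats can share reads. Whether this bears on domains near centromeres was not tested. After removal of duplicates by sambamba 0.5.1, they called peaks for every ChIP library and its input in MACS 1.4, with a p limit of 1e-05 and no pooling. The deposited score is −10 log10 of the caller's p-value (lowest 50.01), and it was used only for ranks within a list. Start and end are the authors' coordinates, printed 1-based. Byte-identical series copies of the 4 lists were not used. Read depth is unknown from the lists, and the inputs entered through the peak calls alone.

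Peaks were linked by 1 bp overlap with Python 3.11.15, numpy 2.4.6, scipy 1.17.1 and pandas 2.3.3, and plots were drawn with matplotlib 3.10.9. Arm ends were set at the highest peak end of the 4 lists, or at the first base for 2R and 3R. Library values were compared with exact permutation tests over the 6 labelings, two-sided. Linking and calling were tested on simulated lists. Domains named by rule were the 8 longest, the 4 with the largest gain and loss of covered length among those with no overlap between groups, the 3 with the largest gain and loss of peaks, and the 4 longest called in each group alone. All but those called in each group alone were taken from domains called in all 4 libraries. Members, lists and tests were chosen with earlier results of these data known. Alternatives were widths of 4000 and 7500 bp, the widest 5% of each list, a score of at least 100, lists of equal size, U and Uextra left out, overlap of 50%, peaks up to 1000 bp apart joined, span in place of covered bases, replicate number as a block and each library left out. Genes and sequences of the domains were not analysed here.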

Additional observations from a re-analysis of the deposited data

How the results depend on the processing

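Of 153 values computed under alternatives, 119 kept their direction or size, 29 moved and 5 turned. For broad share, rank, recovery, median covered length and peaks per domain, only the direction was judged, so that their size could change. The excess of wider domains near centromeres and on Het sequences, 39.7 percentage points, was chosen after seeing the data. It ranged from 27.9 (within 3 Mb) to 43.5 (within 1 Mb) over all alternatives and from 33.6 to 37.7 with each library left out. Counts followed the number of domains taken. Narrower domains numbered 282 at 4000 bp, 40 at 7500 bp, 61 among the widest 5% and 250 with peaks joined up to 1000 bp. Wider domains numbered 21 at 7500 bp and 33 among the widest 5%. Domains with more peaks in dH1 RNAi numbered 11 and 15 at these limits, and those with fewer peaks 3 and 3, 0 with lists of equal size and 8 with peaks joined. Domains called in every library made up 68.0% at 4000 bp, 55.0% at 7500 bp and 74.2% with peaks joined, in alternatives added after seeing the data. The median difference in replicates 1 for domains chosen in replicates 2 turned to 55 bp at 7500 bp, 30 bp among the widest 5% and 9 bp with peaks joined; in replicates 2 it was −489 bp with peaks joined. The cause of these turns was not tested.

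With each library left out, which raises counts by construction, wider domains numbered 87 to 136, narrower ones 198 to 264, those with more peaks 36 to 65 and with fewer 9 to 26. Recovery within minus between groups ranged from −4.96 to 10.2 percentage points, turning without dH1 RNAi replicate 1 (−3.55) or 2 (−4.96). Domains called in every library ranged from 64.4 to 76.7%, highest without WT replicate 1. The difference in broad share ranged from −1.84 to −1.07 percentage points, in rank from 2.15 to 4.13 percentiles, in covered length from −308.5 to −67 bp and in peaks per domain from 0.0857 to 0.145. Equal replicate numbers showed no pairing in covered length, where deviations from the group means correlated at −0.0614 over the 454 domains. Pairing in other measures was not tested. With replicate number as a block, the mean differences were −1.46, 3.14, −166.75 and 0.117. They equal the differences of the group means by construction, and are counted among the values that kept their direction. The pairs of the block differed by −1.59 and −1.32 percentage points in share and by 4.66 and 1.62 in rank. In covered length they differed by −14.5 and −319 bp, and in peaks per domain by 0.0661 and 0.167. The smallest exact sign-flip p for 2 pairs is 0.5, so the block could not change a call.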

Other observations

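Broad peaks had closer neighbours than narrower peaks in 3 of the 4 libraries. The median gap to the nearest peak of the same list was 1699 and 1900 bp for broad peaks in dH1 RNAi and 2903 and 1846.5 bp in WT. For peaks under 5 kb it was 2149 and 2551 bp in dH1 RNAi and 2757 and 1956 bp in WT. In WT replicate 1, the exception, the gap was 2903 bp for broad peaks and 2757 bp for the others. Neighbours within 1000 bp were found for 36.7 and 36.7% of broad peaks in dH1 RNAi and for 26.5 and 34.2% in WT. Among peaks under 5 kb the shares were 32.2 and 28.8% in dH1 RNAi and 28.2 and 33.4% in WT, so that broad peaks were below the others in WT replicate 1 and nearly equal to them in WT replicate 2.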
